A study of Mus musculus with 10 samples.

Results

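The 9 genes described here are regulators of the primitive streak and of the mesoderm that leaves it: T, Eomes, Mixl1, Gsc, Lhx1, Mesp1, Mesp2, Msgn1 and Tbx6. They were chosen by name for that role, with earlier results of these data known, and all 9 were found among the 24500 genes of the count tables. H3K27me3 and EZH2 ChIP-seq was carried out in mouse E14 ES cells, strain 12910la in the labels, with 2 libraries for each antibody and genotype and 1 input library for each genotype, 10 libraries in all. The control cells were wild-type E14 cells. The mutant libraries are titled Ezh2KO, with a knock-out of exon 14 of Ezh2 as the genotype. They were taken here as the ex14D line of the study and are called ex14D, an assumption, since the labels do not name the line and the study also used an Ezh2 knock-out line. In the ex14D line a CRISPR-Cas9 in/del in exon 14 shifts the reading frame, so that the isoform spliced without this exon is the functional one left. The labels do not say how many ex14D lines or clones the libraries came from, nor whether replicates were separate cultures, so the p-values measure the spread between these libraries, which may be technical.

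The primitive streak forms at gastrulation, when Wnt3, Nodal and BMP signals switch on T-box and homeobox factors in the epiblast. T (Brachyury) and Eomes are T-box factors needed for mesoderm and, for Eomes, also for definitive endoderm. Mixl1, Gsc and Lhx1 are homeobox factors of the streak and the organizer, Mesp1 and Mesp2 are bHLH factors of the first mesoderm to migrate, and Msgn1 and Tbx6 act in presomitic mesoderm. In ES cells such genes are typically silent, and the promoters of many developmental regulators carry H3K27me3, the mark that EZH2 writes as the catalytic subunit of PRC2.

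CpG-rich DNA is a known feature of promoters bound by PRC2, so the 250 bases before the start of 5 of the genes are shown, from the RefSeq promoters of GRCm38, 5′ to 3′ in the direction of transcription and with each CpG in capitals. Lhx1 is shown for its many CpGs, T as a marked promoter with a middling number of them, and Eomes as a marked promoter of low GC content. Mesp1 is shown as a marked promoter with few CpGs, and Tbx6 as the promoter with the lowest H3K27me3. Lhx1 is chr11:84525535-84525784 on the reverse strand, T is chr17:8434173-8434422 on the forward strand, Eomes is chr9:118477939-118478188 on the forward strand, Mesp1 is chr7:79793591-79793840 on the reverse strand, and Tbx6 is chr7:126781233-126781482 on the forward strand.
Lhx1: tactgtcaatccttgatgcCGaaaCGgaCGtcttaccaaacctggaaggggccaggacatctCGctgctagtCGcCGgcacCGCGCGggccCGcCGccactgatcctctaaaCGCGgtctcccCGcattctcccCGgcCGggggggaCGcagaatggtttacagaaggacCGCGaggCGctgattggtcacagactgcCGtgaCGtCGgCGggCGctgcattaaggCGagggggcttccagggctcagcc
T: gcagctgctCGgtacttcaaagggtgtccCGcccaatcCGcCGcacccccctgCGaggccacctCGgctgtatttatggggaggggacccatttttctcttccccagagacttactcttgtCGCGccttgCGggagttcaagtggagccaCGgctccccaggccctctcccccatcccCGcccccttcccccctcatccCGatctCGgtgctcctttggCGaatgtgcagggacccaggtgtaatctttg
Eomes: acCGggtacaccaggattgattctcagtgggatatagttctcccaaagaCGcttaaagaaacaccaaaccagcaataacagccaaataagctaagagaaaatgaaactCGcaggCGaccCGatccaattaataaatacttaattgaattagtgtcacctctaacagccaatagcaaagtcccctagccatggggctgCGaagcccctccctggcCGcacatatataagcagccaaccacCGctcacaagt
Mesp1: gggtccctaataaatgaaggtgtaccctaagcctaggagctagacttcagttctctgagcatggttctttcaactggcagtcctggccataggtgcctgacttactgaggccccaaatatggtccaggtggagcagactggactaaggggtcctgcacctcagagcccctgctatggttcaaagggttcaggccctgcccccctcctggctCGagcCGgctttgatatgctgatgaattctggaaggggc
Tbx6: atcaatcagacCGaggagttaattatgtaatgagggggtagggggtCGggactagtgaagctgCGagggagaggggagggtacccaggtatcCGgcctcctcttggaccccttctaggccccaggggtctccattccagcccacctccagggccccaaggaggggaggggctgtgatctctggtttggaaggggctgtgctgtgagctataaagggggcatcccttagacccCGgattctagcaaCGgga

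The RefSeq promoter table held 8 of the 9 genes, and Mixl1 was not among them. Over the whole table entry of each gene, which also holds the 50 bases after the start, the number of CpGs was 31 at Lhx1, 25 at Gsc, 17 at T, 10 at Eomes and at Mesp2, 7 at Tbx6, and 4 at Mesp1 and at Msgn1. The median of all 32851 promoters was 7, with quartiles of 3 and 20, and that of 2458 promoters of genes marked in control cells was 21. Lhx1 and Gsc were therefore above the median of marked promoters, and the other 6 were below it. GC content ran from 47.3% at Eomes to 65.7% at Lhx1. A T-box binding motif (TCACACC, on either strand) was found only in the Mesp1 entry, against 3.98% of all promoters. The TCF/LEF motif CTTTGAT was found at Mesp1 and Msgn1, against 3.73% of all promoters, and the FoxH1 motif AATNCACA at Mesp2, against 3.60%. In the Mesp1 sequence shown, the TCF/LEF motif begins 31 bases before the start.

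In control ES cells, 7 of the 9 promoters carried H3K27me3 at the threshold over input used here and 2 did not. Reads were counted by the authors in a window of 1 kb centred on the 5′-most transcription start. Values are counts scaled to library size (CPM, with the reads on genes as the total). Reads on genes were 5.65% to 7.58% of H3K27me3 reads and 1.90% to 1.92% of input reads. With all counted reads as the total, folds over input without a pseudocount would therefore be higher. A promoter was called marked when (CPM + 1)/(input CPM + 1) was at least 2 in both libraries of a genotype. In a population of cells, more mark per cell and more cells with the mark cannot be told apart. T, Eomes, Mixl1, Gsc, Lhx1, Mesp1 and Mesp2 met the threshold in both genotypes, whereas Msgn1 and Tbx6 met it in neither. Over all 24500 promoters, 11.3% were marked in control and 9.14% in ex14D.

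The T-box factors of the streak had some of the highest levels among the 9. T (chromosome 17, 8434423 to 8442496, forward strand) had 533 and 442 H3K27me3 CPM in control cells and rose to 690 and 723 CPM in ex14D cells, beside input values of 70.8 and 60.0. Both ex14D libraries were above both control libraries. T ranked 196 among all promoters by its control mean. Eomes (chromosome 9, 118478189 to 118486132, forward strand) had 468 and 412 CPM in control and 655 and 714 CPM in ex14D, with input at 56.2 and 67.2 CPM. Its values did not overlap between the genotypes either, and within each library Eomes stayed between 0.88 and 0.99 of the T count.

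Gsc, a homeobox gene of the organizer, overlapped T in control and was above it in both ex14D libraries. At Gsc (chromosome 12, 104471209 to 104473236, reverse strand) 569 and 433 CPM were measured in control and 802 and 872 CPM in ex14D. Its input was 78.2 CPM in control and 38.4 CPM in ex14D, on 32 and 16 reads, so its fold over input moved with the input as well as with the mark. Fold over input was 7.20 and 5.48 in control and 20.4 and 22.2 in ex14D.

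Lhx1, which acts in the organizer, could be read only over a short stretch. Its window (chromosome 11, gene at 84517975 to 84525534, reverse strand) shares all but 126 bp with the neighbouring Lhx1os, and reads on more than 1 feature were assigned to neither gene. Lhx1 had 55.5 and 49.1 CPM in control and 95.1 and 121 CPM in ex14D. Expressed per kb of unshared window these were 441 and 390 CPM in control and 755 and 960 CPM in ex14D, where 1 control value lay below those of T and Gsc and 1 ex14D value above them. The input held 3 reads in control and 2 in ex14D at Lhx1. The ratio of CPM to input, without a pseudocount, was 7.58 in control replicate 1 (exact 95% interval 2.38 to 38.6) and 25.2 in ex14D replicate 2 (6.86 to 210.1), where the intervals cover counting error only.

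Mixl1, Mesp1 and Mesp2 had lower levels of the mark. Mixl1 (chromosome 1, 180693043 to 180697034, reverse strand), a homeobox target of Nodal signalling, had 246 and 235 CPM in control and 177 and 157 CPM in ex14D, with input at 39.1 and 60.0 CPM. Here the ex14D values lay below the control values, the reverse of T, Eomes and Gsc, as they did at 51.2% of all tested promoters and 42% of the marked ones. Mesp1 (chromosome 7, 79792241 to 79793590, reverse strand), which marks the first cardiac mesoderm, had 289 and 220 CPM in control and 199 and 167 CPM in ex14D. Mesp2 (chromosome 7, 79810727 to 79813431, forward strand), needed for segment boundaries, had 178 and 208 CPM in control and 230 and 200 CPM in ex14D, and its genotypes overlapped. The starts of Mesp1 and Mesp2 lie 17.1 kb apart. The count at Mesp1 was 1.62 and 1.06 times that at Mesp2 in control and 0.87 and 0.84 times in ex14D.

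The 2 presomitic genes were at or below input on the scale of reads on genes. Msgn1 (chromosome 12, 11208382 to 11208948, reverse strand) had 26.9 and 32.0 CPM in control and 26.2 and 23.2 CPM in ex14D, beside input values of 34.2 and 48.0 CPM. Tbx6 (chromosome 7, 126781483 to 126785548, forward strand) had 23.6 and 6.40 CPM in control and 6.89 and 6.41 CPM in ex14D, against 41.5 and 64.8 CPM in input. Those Tbx6 values rest on 6 to 14 reads a library. Median promoters had 11.8 and 11.7 CPM in the control H3K27me3 libraries, so that Msgn1 was above the middle of all promoters while not enriched over its input on this scale. Of all counted reads, Msgn1 had 16 of 10525739 and 30 of 15683174 in control, a higher share than its 14 of 21566935 in input. Without a pseudocount, whether Msgn1 is called marked in control therefore depends on the total used.

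**Figure D1:**
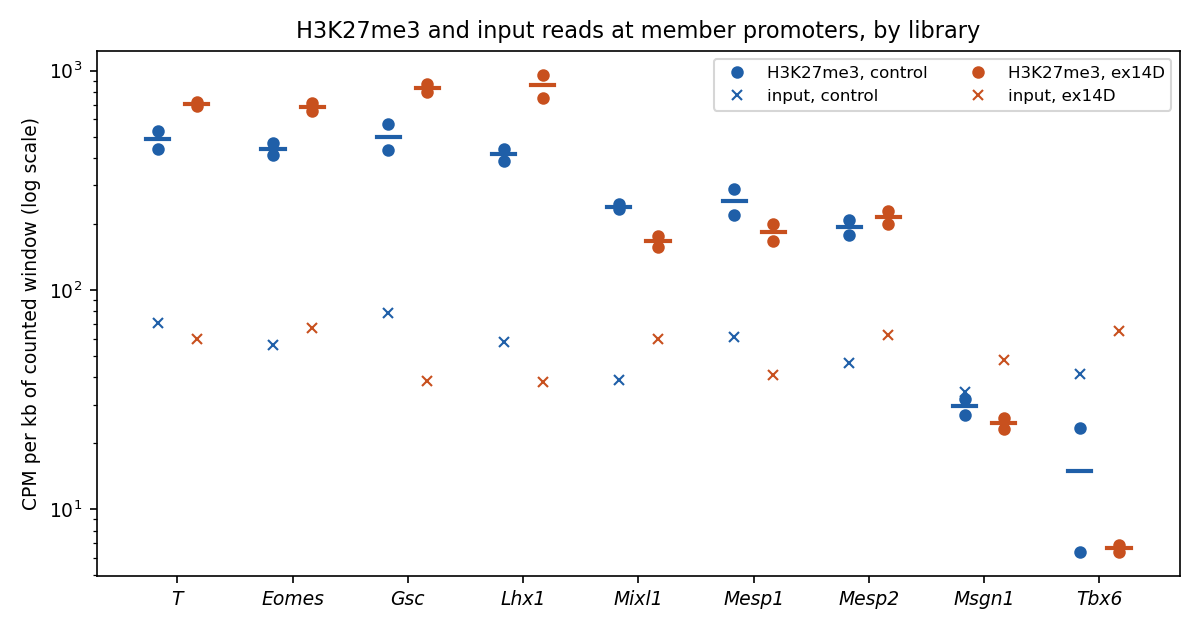
H3K27me3 (circles) and input (crosses) reads at the 9 promoters in CPM per kb of counted window, on a log scale, with 1 point for each library, a bar for the mean of the 2 libraries, and control in blue and ex14D in orange. T, Eomes, Gsc and Lhx1 have both ex14D points above both control points, and Mixl1, Mesp1 and Msgn1 have them below. Msgn1 and Tbx6 lie at or under their inputs on this scale.

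Ordered by their mean in control, per kb of counted window, Gsc (501 ± 95.8 CPM, SD, n = 2), T (488 ± 64.8 CPM), Eomes (440 ± 39.5 CPM) and Lhx1 came first, and the ranges of neighbours in this order overlapped. Mesp1 (255 ± 49.2 CPM) and Mixl1 (240 ± 7.73 CPM) followed with overlapping ranges. Mesp2 (193 ± 21.0 CPM), Msgn1 (29.5 ± 3.60 CPM) and Tbx6 (15.0 ± 12.1 CPM) each lay below the gene before them without overlap. In ex14D the order at the top was Lhx1 and Gsc (837 ± 49.7 CPM), which overlapped, then T (706 ± 23.2 CPM) and Eomes (685 ± 41.4 CPM), which overlapped each other but not Gsc. Mesp2 (215 ± 21.1 CPM) came next in ex14D, ahead of Mesp1 (183 ± 22.4 CPM) and Mixl1 (167 ± 14.2 CPM).

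Peaks called by MACS2 in each library gave the same 7 genes. T, Eomes, Mixl1, Gsc, Lhx1, Mesp1 and Mesp2 had an H3K27me3 peak over the promoter window in both control and both ex14D libraries, against 18% of all placed genes in control and 16.5% in ex14D. With peaks limited to q under 0.001, T and Lhx1 dropped out in control replicate 1, which left 5 genes in control and 7 in ex14D. Msgn1 had a peak only in ex14D replicate 1, of 0.835 kb and 2.21-fold enrichment. Tbx6 had none in any library, and its nearest peak was 39.5 to 47.9 kb from its start.

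The breadth of the marked region differed between the genes. Lhx1 peaks were 18.6 to 20.6 kb wide, and those of Eomes, the widest of the 9 in every library but control replicate 1, ranged from 13.2 to 24.9 kb. Peaks over T spanned 10.9 and 16.2 kb in control and 11.2 and 11.7 kb in ex14D. Gsc was covered by peaks of 10.6 to 12.6 kb. Mixl1 was covered by 5.66 and 5.40 kb in control and 4.29 and 3.84 kb in ex14D, which was narrower in both ex14D libraries, as at 38% of the 3681 genes with a peak in all 4 libraries. Mesp1 peaks spanned 6.73 to 10.9 kb and Mesp2 peaks 3.14 to 5.49 kb. Fold enrichment from the peak caller differed greatly between replicates, as at Mixl1 with 8.64 and 2.78 in control against 4.37 and 13.9 in ex14D, where the genotypes overlapped.

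EZH2 domains, called by the authors with hiddenDomains in each library, lay over the same 7 promoters in control, against 16.8% of all placed genes. In ex14D, 6 of the 9 had a domain in both libraries, against 10.4% of all genes. The one lost was Mesp2, which had a domain of 2 kb in each control library, 1 kb in ex14D replicate 1 and none in ex14D replicate 2, where the nearest was 16.7 kb away, on the side of Mesp1. Domains over T were 9 and 9 kb wide in control and 7 and 6 kb in ex14D. Gsc domains were 10 and 10 kb in control and 7 and 8 kb in ex14D, and Mixl1 domains were 3 and 4 kb in control and 2 and 2 kb in ex14D. At these 3 genes, of 6 with a domain in all 4 libraries, both ex14D domains were narrower than both control domains, which held for 44.2% of 2532 such genes and so does not set the members apart. Eomes (16 and 22 kb in control, 7 and 16 kb in ex14D), Mesp1 (3 and 4 kb, then 4 and 2 kb) and Lhx1 (17 and 20 kb, then 17 and 19 kb) overlapped between genotypes. Over the genome, 7322 and 7704 domains were called in control and 5067 and 4122 in ex14D.

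**Figure D2:**
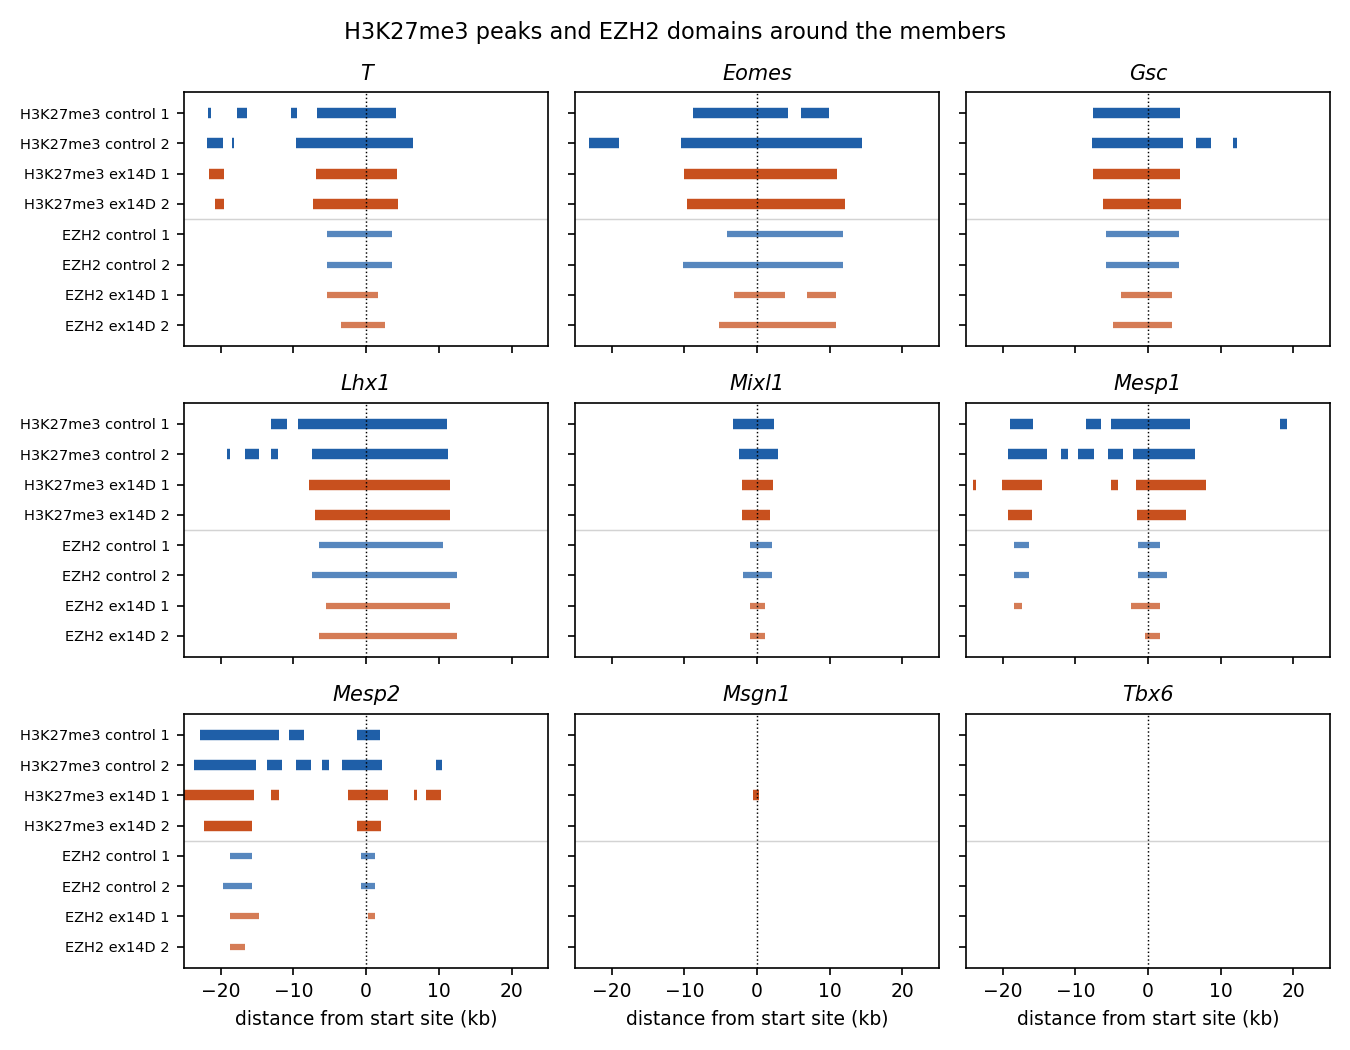
H3K27me3 peaks (upper 4 rows of a panel) and EZH2 domains (lower 4 rows) of each library around the start site of each gene, with distance from the start in kb on the horizontal axis in the direction of transcription, control in blue and ex14D in orange. Regions run across the start at 7 genes, Msgn1 has a single peak of 0.835 kb, and Tbx6 has none; the intervals near −17 kb in the Mesp1 and Mesp2 panels lie over the other of these neighbours.

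The next comparison asked whether H3K27me3 at these promoters differed between control and ex14D cells. H3K27me3 was higher in ex14D at T, Eomes, Gsc and Lhx1, relative to the bulk of promoters. No call was made at Mixl1, Mesp1, Mesp2 and Msgn1. The test was edgeR's quasi-likelihood test on the counts after TMM scaling, with Benjamini-Hochberg adjustment over 14883 promoters and a threshold of 0.05. Of the 8 genes tested, 4 were higher and 0 lower, 5 were higher and 0 lower at an unadjusted p under 0.05, and DESeq2 also called 4 higher and 0 lower. Across all tested promoters 5.85% were higher and 3.19% lower, and of 2658 marked in control 28.6% were higher and 4.7% lower. Tbx6 did not pass the filter on low counts and was not tested.

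Lhx1 showed the largest rise, with a log2 fold change of 1.50 (standard error, SE, 0.28, edgeR adjusted p = 0.000613). Gsc rose by 1.19 on the log2 scale (SE 0.21, edgeR adjusted p = 0.000249), Eomes by 1.09 (SE 0.20, edgeR adjusted p = 0.00046) and T by 0.99 (SE 0.20, edgeR adjusted p = 0.00136). At each of the 4 genes both ex14D libraries exceeded both control libraries in CPM, as at 9.1% of all tested promoters and 30% of those marked in control. Mesp2 had a log2 fold change of 0.60 (SE 0.21) with an adjusted p = 0.0744 from edgeR and was called only when the scaling was set on unmarked promoters, at 0.72 (adjusted p = 0.0319). The values of the others were 0.18 at Msgn1 (adjusted p = 0.831), −0.02 at Mesp1 (adjusted p = 0.978) and −0.07 at Mixl1 (adjusted p = 0.894), and the sign of these 3 changed with the scaling.

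These fold changes are relative to the bulk of promoters, since ChIP-seq counts do not carry the total amount of the mark. By Western blot the paper reports less total H3K27me3 in ex14D cells, and by ChIP-PCR less of it at selected developmental genes. A relative rise here is thus not a measured gain in the amount of the mark. The TMM scaling set the median of all tested promoters at −0.02, whereas scaling by library size alone set it at −0.47. On that second scale T was at 0.54, Eomes at 0.64, Gsc at 0.74 and Lhx1 at 1.05, all 4 still past the threshold (adjusted p = 0.045, 0.0179, 0.00755 and 0.0159 from edgeR), while Mixl1 was at −0.52, Mesp1 at −0.46 and Mesp2 at 0.15 without a call. Over all promoters the split of calls moved from 871 higher and 475 lower to 398 higher and 2176 lower on that scale, to 618 and 581 when all counted reads set the library size, and to 1118 and 311 when unmarked promoters set the scaling. Without control replicate 2 none of the 4 genes passed (adjusted p = 0.0803 at T, 0.062 at Eomes, 0.0602 at Gsc and 0.0863 at Lhx1, edgeR), although 5 genes were higher and 1 lower at an unadjusted p under 0.05. The log2 fold changes were then 0.81, 0.95, 0.96 and 1.36. Without ex14D replicate 2 Lhx1 did not pass, at 1.32 (adjusted p = 0.0767, edgeR).

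**Figure D3:**
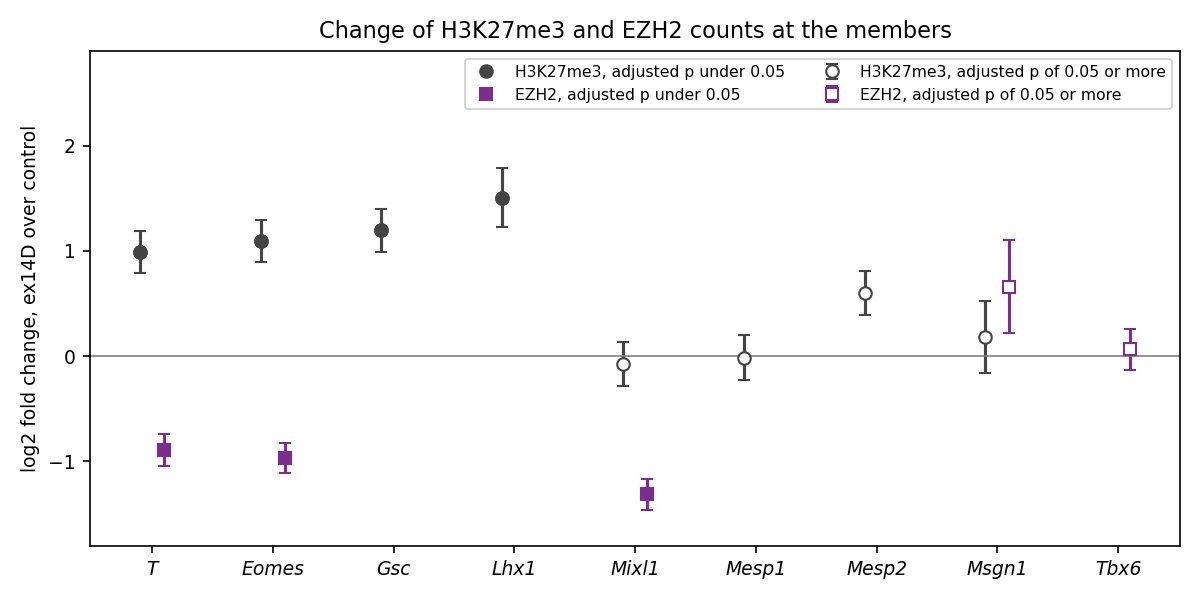
Log2 fold change (ex14D over control) is shown for H3K27me3 counts at the promoter (circles) and EZH2 counts listed for the gene (squares). Bars are standard errors from edgeR, and filled symbols have an adjusted p under 0.05. H3K27me3 is higher at T, Eomes, Gsc and Lhx1, EZH2 is lower at T, Eomes and Mixl1, and genes without a symbol were not tested for that antibody.

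Read within a library, where no scaling enters, the genes moved apart. The count at T was 2.17 and 1.88 times that at Mixl1 in control and 3.89 and 4.60 times in ex14D. Gsc stood at 2.32 and 1.85 times Mixl1 in control and 4.53 and 5.55 times in ex14D. T was 1.84 and 2.01 times Mesp1 in control and 3.46 and 4.32 times in ex14D. In contrast, the ratio of T to Mesp2, 2.99 and 2.12 in control and 3.00 and 3.61 in ex14D, barely separated the genotypes. With 2 libraries against 2 an exact permutation test cannot go below p = 0.333, so these ratios are given without a test.

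Compared with promoters marked to a like degree in control, the 4 genes that rose lay in the upper part and Mixl1 in the lower part. Of promoters 4- to 8-fold over input in the lower control library, 958 were tested, with a median log2 fold change of 0.46, of which 334 were higher and 30 lower. Lhx1 was at percentile 96.7 of that class, Gsc at 91.1, Eomes at 87.7, T at 83.4 and Mixl1 at 15.6. In the class of 2- to 4-fold, with 1299 promoters and a median of 0.07, Mesp2 was at percentile 84.6 and Mesp1 at 44.1. Promoters of 8-fold or more had a median of 1.00, and those under 2-fold one of −0.09, which orders the 4 classes by their control mark. Across 1850 marked and tested promoters with a RefSeq promoter sequence, the number of CpGs and the log2 fold change had a Spearman rho of −0.04, a description across genes that share libraries and are not replicates.

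**Figure D4:**
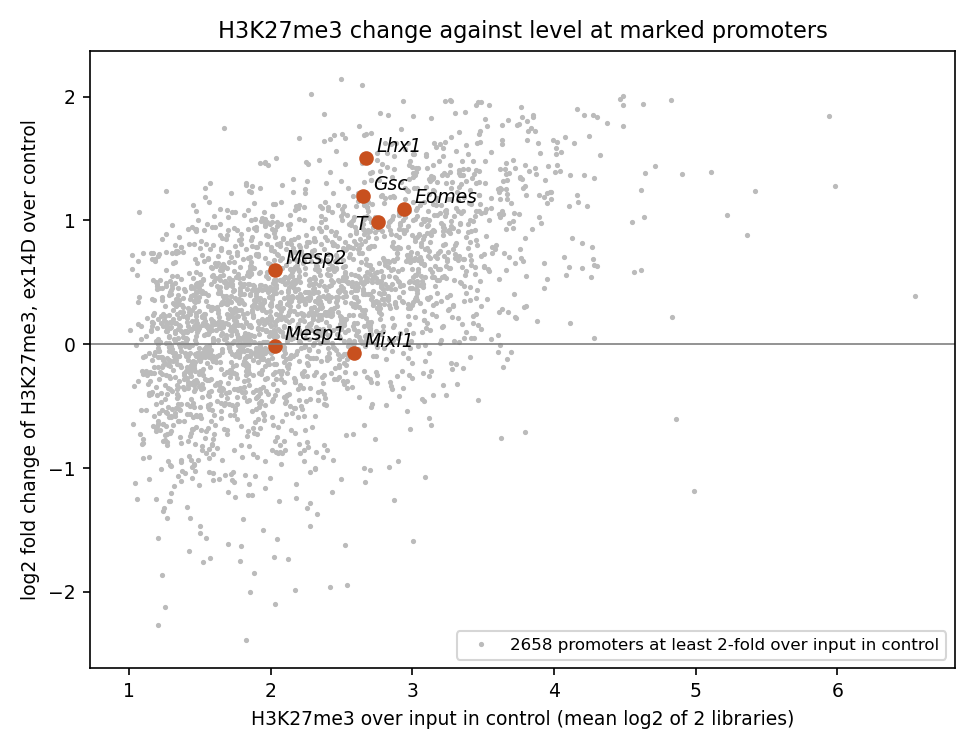
Log2 fold change of H3K27me3 (ex14D over control, vertical axis) against H3K27me3 over input in control (mean log2 of 2 libraries, horizontal axis) for the 2658 tested promoters that were marked in control (2-fold over input), in grey, with 7 of the 9 genes in orange. T, Eomes, Gsc and Lhx1 are in the upper part of the cloud at their level, and Mixl1, at a like level, is in its lower part.

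EZH2 was compared in the same way, on counts that rose with gene length and are therefore given per kb of gene, although the study's methods state 1 kb promoter windows. The interval counted for EZH2 was not settled. EZH2 counts were lower in ex14D at T, Eomes and Mixl1, whereas Tbx6 and Msgn1, without a domain, showed no call. Gsc, Lhx1, Mesp1 and Mesp2 had a listed value of 0 in each of the 4 tables, which gave no comparison. They share this with 43.2% of all genes, and they lie in unbroken stretches of genes listed at 0, which hold 1388 genes over 66.3 Mb of chromosome 11 around Lhx1, 662 genes around Gsc and 566 genes around Mesp1 and Mesp2. EZH2 domains were called at these 4 promoters in control, so a listed 0 is not read here as absence of EZH2. Of the 5 genes tested, 3 were lower and 0 higher by edgeR, by DESeq2 and at an unadjusted p under 0.05. Of all 13401 tested genes 7.88% were lower and 0.0522% higher by edgeR. Among 1625 tested genes with a marked promoter, as these 3 have, 49% were lower.

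Mixl1 had 294 and 326 EZH2 reads in control and 123 and 117 in ex14D, or 5.31 and 4.44 CPM per kb of gene in control and 2.26 and 1.78 in ex14D. The fit placed Mixl1 at −1.31 on the log2 scale (SE 0.15, edgeR adjusted p = 0.00398). Eomes had 1365 and 1754 reads in control and 821 and 695 in ex14D, which is 12.4 and 12.0 CPM per kb against 7.58 and 5.33, and fell by 0.96 on the log2 scale (SE 0.14, edgeR adjusted p = 0.00818). T had 684 and 885 reads in control and 441 and 364 in ex14D, or 6.11 and 5.96 CPM per kb against 4.01 and 2.74, and fell by 0.89 on the log2 scale (SE 0.15, edgeR adjusted p = 0.0125). At all 3 genes the ex14D libraries were below both control libraries, as at 18% of all tested genes and 61.8% of those with an EZH2 domain in both control libraries, and replicate 2 of ex14D was the lowest. Eomes kept 1.86 to 2.00 times the reads of T in each of the 4 libraries.

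Tbx6 had 68 and 69 EZH2 reads in control and 56 and 82 in ex14D, with a log2 fold change of 0.06 (adjusted p = 0.931 from edgeR). Msgn1 had 10 and 9 reads in control and 9 and 20 in ex14D, with a value of 0.66 (adjusted p = 0.556). Both stayed between 0.862 and 2.15 CPM per kb, beside a median of 0.966 in control and 1.00 and 1.03 in ex14D over genes with reads. The falls at T, Eomes and Mixl1 can be set beside 2413 tested genes with an EZH2 domain in both control libraries, whose median was −0.22, with 940 lower. Mixl1 was at percentile 3.23 of these, Eomes at 12.1 and T at 14.8. The 3 calls depended on having 2 control libraries. Without control replicate 1 the adjusted p was 0.238 at T, 0.202 at Eomes and 0.155 at Mixl1, without control replicate 2 it was 0.246, 0.208 and 0.179, all by edgeR, and the unadjusted p of all 3 stayed under 0.05 each time. The fold changes were −0.87 and −0.90 at T, −0.94 and −0.99 at Eomes and −1.19 and −1.44 at Mixl1 in these fits. Leaving out ex14D replicate 1 or 2 kept the calls and moved the values more, to −1.20 and −0.62 at T, −1.26 and −0.72 at Eomes and −1.50 and −1.13 at Mixl1.

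Set side by side, T and Eomes had lower EZH2 counts, over an interval that was not settled, and higher H3K27me3 counts at the promoter in ex14D. Both are relative to the other genes of each fit. In ex14D lines the paper reports less EZH2 protein by Western blot and lower EZH2 enrichment at target genes by ChIP-seq. Mixl1 had the largest EZH2 fall of the 3 and no call in H3K27me3. The difference between Mixl1 and the T-box genes was not tested. By qPCR after LIF withdrawal, the paper reports earlier and higher RNA of T, Eomes and Mixl1 in ex14D than in control cells. In its knock-out cells it reports that T, Eomes and Mixl1 were not activated. The libraries used here hold no RNA, and a link between these ChIP-seq counts and that RNA was not tested.

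Other genes of these pathways were summarised from lists, chosen with results of these data known. Their counts of marked promoters stand beside 11.3% of all promoters marked in control. Their calls stand beside 28.6% of marked promoters higher in H3K27me3 and 49% of tested genes with a marked promoter lower in EZH2. On so few genes, 7 of 10, 5 of 7 or 3 of 6 lower in EZH2 was not tested against the 49% and is not read as a difference from it. The 10 and the 6 also hold genes without a marked promoter. The streak signals (Wnt3, Wnt3a, Nodal, Tdgf1, Foxh1, Bmp4, Fgf8, Lefty1, Lefty2, Cer1, Dkk1 and Gdf3) had 6 of 12 promoters marked in control. Of 9 tested for H3K27me3, 3 were higher and 0 lower, with a median of 0.27 against −0.02 over all tested promoters and 0.33 over 2658 marked ones. The 3 were Fgf8 (1.05), Wnt3a (0.82) and Wnt3 (0.70), a growth factor and 2 Wnt ligands of the streak. For EZH2, 1 of 5 was lower, the ligand Bmp4 at −1.20, and the median was −0.05 against 0.02 over all tested genes and −0.32 over 1625 tested genes with a marked promoter.

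Genes of presomitic mesoderm and segmentation were mostly marked, but not all. On the scale of reads on genes, Msgn1 and Tbx6, which act beside them, are thus not alone in being unmarked. Of 16 such genes 13 were marked in control, and of the 16 tested 8 were higher in H3K27me3 and 0 lower, with a median of 0.58. Sp5, a Wnt target, was at 1.56, Foxc1, a forkhead factor of paraxial mesoderm, at 1.56 and the ligand Wnt5a at 1.48. For EZH2, 7 of 10 were lower and 0 higher with a median of −0.67, led by Ripply2 (−1.06), Lfng (−1.04) and Wnt5a (−0.80), the former 2 acting in segmentation. Among genes of lateral and heart mesoderm 12 of 12 were marked, 8 of 12 were higher in H3K27me3 and 0 lower, with a median of 0.89. These included the GATA factor Gata6 (1.37), Hand2 (1.28), a bHLH factor of heart and limb, and Tal1 (1.27), a bHLH factor of blood. The control input held 0 reads at Gata6, whose window had 57 bp unshared, and at Hand2, so that their marked calls rest on the pseudocount. EZH2 was lower at 5 of 7 of them, with a median of −0.80, as at Nkx2-5 (−0.99), Etv2 (−0.95) and Snai1 (−0.80). Of 9 genes of definitive endoderm and node, 8 were marked, 3 were higher in H3K27me3 and 0 lower with a median of 0.36, namely Foxa2 (1.73), Otx2 (1.52) and Sox17 (0.78). EZH2 was lower at 3 of 6 of these, Sox17 (−1.08), Cxcr4 (−0.98) and Foxa2 (−0.60). At an unadjusted p under 0.05, 1 presomitic gene and 1 endoderm gene were lower in H3K27me3, none of the 4 lists held a gene higher in EZH2, and DESeq2 called 0 of either. DESeq2 called 2 streak signals (without Wnt3, adjusted p = 0.057), 8 presomitic, 7 lateral and heart and 3 endoderm and node genes higher in H3K27me3, and 1, 8, 4 and 3 lower in EZH2. On the scale of library size alone the H3K27me3 medians were −0.17 for streak signals, 0.13 for presomitic, 0.44 for lateral and heart and −0.09 for endoderm and node genes, against −0.12 over marked promoters, so that the sign of the first and last depends on the scaling.

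The genes with the H3K27me3 and input pattern closest to T over 6 libraries were Fgfr3, Pou4f3 and Shc3, by Euclidean distance of log2(CPM + 1). Their distances were 0.31, 0.33 and 0.34, against 0.43 for Eomes, the nearest of the 9. Fgfr3 had 515 and 450 CPM in control and 748 and 747 in ex14D, close to T in every library. Shc3 had 538 and 456 CPM in control and 696 and 759 in ex14D. By ChIP-PCR the paper reports less H3K27me3 at Shc3 in ex14D cells, the other direction. CPM are relative to the library, and the reason for this difference was not tested.

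At 8 ES cell genes the mark was read as a level and not as RNA. Of these, 7 (Pou5f1, Nanog, Sox2, Esrrb, Zfp42, Tfcp2l1 and Dppa5a) were not marked in control and Klf4 was, with 3.50- and 2.42-fold over input. As only 11.3% of all promoters were marked in control, this does not check the label of the cells. Of the 8 genes, 4 were tested for H3K27me3 and 3 for EZH2. Klf4 was the single one called lower in ex14D, by −0.88 for H3K27me3 and −1.45 for EZH2. Among 9 genes of trophoblast and fibroblasts, the other cells a culture could hold, 7 were marked in control, with 3 of 9 higher in H3K27me3 (Cdx2 1.38, Gata3 1.13 and Eomes 1.09) and 6 of 7 lower in EZH2 (led by Tfap2c −1.11, Eomes −0.96 and Thy1 −0.95), beside the 28.6% and 49% over genes with a marked promoter. ChIP-seq counts give no share of such cells.

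Reads on genes numbered 409371 and 416778 in the inputs, 594289 and 937207 in control and 1450937 and 1248018 in ex14D H3K27me3 libraries, and 13628137 to 18403892 in EZH2 libraries. The ex14D H3K27me3 libraries were deeper than the control ones, and 6.86% to 7.58% of their reads lay in promoter windows against 5.65% to 5.98% in control. Replicates varied beyond counting noise. Their chi-square, divided by the degrees of freedom, was 2.31 (control) and 1.95 (ex14D) for H3K27me3 and 1.48 and 3.95 for EZH2. Counts at Ezh2 in ChIP-seq do not check the genotype.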

How the data were processed

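H3K27me3, EZH2 and input ChIP-seq of control and ex14D mouse ES cells was analysed, grouped by the genotype in the labels. The authors trimmed and aligned reads to mm10 (Trimmomatic and Bowtie2 in the submitters' processing notes, Bowtie in the methods), counted them with htseq-count and deposited whole-number counts per gene, not normalized. The deposited MACS2 broad peaks hold the caller's fold enrichment, −log10 p and −log10 q, and the deposited EZH2 domains only positions. Peaks and domains were called per library. H3K27me3 domains ran past the ends of 8 chromosomes of GRCm38 and were not used. Rows that name no gene (no feature and ambiguous) took 98.1% of input, 92.4% to 94.4% of H3K27me3 and 55.7% to 56.1% of EZH2 reads and stayed out of library sizes. In all, 24366 of 24500 genes were placed on GRCm38 by RefSeq. The methods state promoter windows of 1 kb around the 5′-most start. The EZH2 counts had a Spearman rho of 0.886 to 0.923 with gene length, against 0.151 to 0.163 for H3K27me3, and the interval behind them was not settled.

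Counts were compared with edgeR 4.0.16 in R 4.3.3 (quasi-likelihood F test after TMM scaling and filterByExpr, with p-values adjusted by Benjamini-Hochberg over all tested genes and a threshold of 0.05), each antibody alone, after a test on simulated data. SEs were derived from the F statistic, as the absolute log2 change over its square root. DESeq2 1.42.0, other scalings, no filter, the replicate block and each library left out were alternatives. Ratios over input used a pseudocount of 1 CPM. Peaks and domains were assigned by an overlap of at least 1 bp with the window of 1000 bp. Calculations outside R used Python 3.11.15 and pandas 2.3.3.

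The members and lists were chosen with earlier results of these data known. All 9 members are named. Of a list, the 3 genes past the threshold with the largest change per antibody are named, and the 3 genes nearest to T.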

Additional observations from a re-analysis of the deposited data

How the results depend on the processing

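The 4 H3K27me3 calls (T, Eomes, Gsc and Lhx1) and the 3 EZH2 calls (T, Eomes and Mixl1) held under each other scaling run for that antibody, no filter and DESeq2 (scaling on unmarked promoters was run for H3K27me3 alone), and Mesp2 became another H3K27me3 call with scaling on unmarked promoters (0.72). With 1 library left out, where the lone library is assumed to vary like the other group, H3K27me3 calls among the members ranged from 0 to 4 (0 without control replicate 2, when 5 were higher and 1 lower at an unadjusted p under 0.05) and EZH2 calls from 0 to 3 (0 without control replicate 1 or 2, when 3 were lower at an unadjusted p under 0.05). The cause was not tested. Signs changed at genes without a call. For H3K27me3, Mesp1 was at 0.0093 with DESeq2 size factors, 0.11 with unmarked promoters, −0.26 to 0.16 with a library left out. Mixl1 was at 0.050 with unmarked promoters and −0.16 to 0.016 with a library left out, and Msgn1 at −0.27 with library size alone. For EZH2, Tbx6 ran from −0.14 to 0.25 with a library left out.

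Deviations of same-numbered libraries of the genotypes had a correlation of −0.09 for H3K27me3 and −0.02 for EZH2. With 2 libraries a group and counting noise in these deviations, this cannot show whether they share more than a number. With the replicate block the members' calls were the same 4 and 3, and all calls were 755 higher and 406 lower for H3K27me3 (871 and 475 without it) and 3 higher and 852 lower for EZH2 (7 and 1056).

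Over all promoters, H3K27me3 calls were 398 higher and 2176 lower with library size alone, 657 and 266 with DESeq2 and 1118 and 311 with unmarked promoters, and with a library left out from 255 to 797 higher and 73 to 610 lower. EZH2 calls were 2 higher with DESeq2 size factors, 47 with library size alone, 33 with all counted reads and 0 with the DESeq2 test (7 at an unadjusted p under 0.05), and with a library left out from 0 to 81 higher and 0 to 1561 lower (0 lower without control replicate 1 or 2, with 1372 and 1300 at an unadjusted p under 0.05). Members marked 4-fold or more numbered 5 in each genotype, Mixl1 in control alone and Mesp1 in ex14D alone. Input depth, at 14 to 32 reads a member window and 2 or 3 at Lhx1, limits the folds over input.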
